A study of Mus musculus with 12 samples.

Results

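The AP-1 family of transcription factors was followed through the livers of mice that lacked YAP1. The 10 members were the genes listed under the names Fos, Fosb, Fosl1, Fosl2, Jun, Junb, Jund, Atf3, Batf and Maff in both deposited tables, out of 41743 genes, and all 10 were found. The RNA came from whole livers of 12 females, 3 to 4 months old, in 4 groups of 3. YAP1 KO mice lacked Yap1 in cells of the foregut endoderm, where Foxa3-Cre is active, and also carried a ROSA EYFP reporter behind a floxed stop; they were on a C57BL/6 background and their controls were wild-type littermates, named WT (C57BL/6). YKTH mice also had Yap1 deleted by Foxa3-Cre, but from another floxed line for which no reporter is described, and were heterozygous for Wwtr1, the gene of TAZ. They came from crosses of C57BL/6 and FVB mice and were compared with their own wild-type littermates, named WT (mixed). The strain background, the floxed line, the reporter and the lost Wwtr1 copy differ together between the models and cannot be told apart. The Yap1 that remained, given below, differed as well. Which WT mouse was the littermate of which knockout is not stated in the labels.

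AP-1 is a dimer of basic leucine zipper proteins that binds DNA at AP-1 sites. JUN proteins can pair with each other or with FOS proteins, whereas FOS proteins need a partner such as JUN to bind DNA. ATF3, BATF and the small MAF protein MAFF belong to related branches and can pair with several of them. Many of the genes are immediate-early genes, which are transcribed within minutes of a growth or stress signal from transcripts that decay quickly, and in the liver they are known for their induction after partial hepatectomy and injury.

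Values are TPM, a transcript abundance in which reads are scaled for gene length and to a common library total, so that levels can be set side by side between genes. Read counts are not used here, so the depth behind each value is unknown, and the spread between mice is the only error available. The targeted gene was checked in every mouse. YAP1 KO mice LM189, LM191 and LM74 had 1.93, 1.67 and 3.72 TPM of Yap1, against 28.2 to 30.5 TPM in their WT littermates. Yap1 was at 31.0 to 33.2 TPM in the WT (mixed) livers and at 9.20, 11.5 and 8.63 TPM in YKTH mice LM250, LM251 and LM225. Yap1 was thus low in all 6 knockout livers, with more of it in YKTH than in YAP1 KO mice (difference of the log2 fold changes −1.59, SE 0.24, adjusted p = 0.0326 by limma with Benjamini-Hochberg adjustment). Wwtr1 was at 11.5 to 14.1 TPM in YKTH against 7.73 to 8.38 TPM in WT (mixed) mice. It was at 13.3 to 16.7 TPM in YAP1 KO against 6.26 to 6.83 TPM in WT (C57BL/6) mice. Its log2 fold change was 0.73 in YAP1 KO (adjusted p = 0.00176) and 0.26 in YKTH livers (adjusted p = 0.0743, limma). The difference of 0.46 between the models did not pass (SE 0.14, unadjusted p = 0.00532, adjusted p = 0.798, limma). Since Wwtr1 rose in YAP1 KO livers, the WT (mixed) levels alone cannot show whether 1 copy was lost. Hepatocyte markers were present in every liver (8 genes, among them Alb and Apoa1, summing to 75459 TPM or more). Within the YAP1 KO group, LM189 had the highest level of 8 of the 10 members and LM74 the lowest of 8, so results in this group are also given for single mice.

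The stretches around the start sites of 4 members are shown as examples: Fos, Jun and Atf3, which had the largest log2 fold changes in YAP1 KO livers on the scale of the test (log2 of scaled TPM + 1), and Maff, which did not pass there. Whether letters in these windows go with the changes was not tested. The windows come from the RefSeq promoter table on GRCm38.p6 and run 5′ to 3′ on the strand of the gene, from 250 bases before the start to 50 bases from it on. Capitals mark matches to the motifs searched. They are chr12:85473640-85473939 on the + strand (Fos), chr4:95052173-95052472 on the − strand (Jun), chr1:191183284-191183583 on the − strand (Atf3) and chr15:79347270-79347569 on the + strand (Maff, the second of its 3 windows).
Fos: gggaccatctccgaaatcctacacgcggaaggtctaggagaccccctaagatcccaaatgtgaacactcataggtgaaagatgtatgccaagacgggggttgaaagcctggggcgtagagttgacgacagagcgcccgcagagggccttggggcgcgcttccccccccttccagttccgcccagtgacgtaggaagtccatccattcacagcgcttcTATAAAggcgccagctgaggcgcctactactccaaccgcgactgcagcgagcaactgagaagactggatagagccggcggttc
Jun: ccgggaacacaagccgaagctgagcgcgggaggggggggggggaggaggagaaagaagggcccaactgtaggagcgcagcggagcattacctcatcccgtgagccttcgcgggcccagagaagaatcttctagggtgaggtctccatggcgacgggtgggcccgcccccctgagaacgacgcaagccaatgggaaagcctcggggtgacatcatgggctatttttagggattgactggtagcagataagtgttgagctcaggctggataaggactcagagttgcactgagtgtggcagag
Atf3: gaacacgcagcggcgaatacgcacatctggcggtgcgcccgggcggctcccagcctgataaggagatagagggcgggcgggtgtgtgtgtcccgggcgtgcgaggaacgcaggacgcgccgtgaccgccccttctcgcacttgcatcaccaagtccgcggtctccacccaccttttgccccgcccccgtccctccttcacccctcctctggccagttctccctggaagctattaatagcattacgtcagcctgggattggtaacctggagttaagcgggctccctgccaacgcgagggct
Maff: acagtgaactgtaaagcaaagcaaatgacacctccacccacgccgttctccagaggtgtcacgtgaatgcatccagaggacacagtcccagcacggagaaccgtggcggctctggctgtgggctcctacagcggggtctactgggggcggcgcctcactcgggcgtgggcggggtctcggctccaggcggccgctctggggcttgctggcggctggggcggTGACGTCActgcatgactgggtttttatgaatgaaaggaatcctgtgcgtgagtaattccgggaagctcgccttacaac

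Windows were found for 9 of the 10 members (11 windows, none for Fosl1). Both strands were searched for 5 motifs, none of which overlapped another in these windows. The AP-1 site, searched as TGACTCA, occurred in 5.20% of the 32851 windows of all genes and in no member window. The TEAD site, searched as CATTCC and bound by the partners of YAP1 and TAZ, occurred in 14.7% of all windows and in no member window. The CArG box of serum response factor occurred in 1.63% of all windows and in no member window. The box searched as TATAAA, found in 13.6% of all windows, lay 33 bases before the RefSeq start of Fos and at base 1 from that of Junb. The start of Junb as listed in the table lies further downstream. The cAMP response element, searched as TGACGTCA and bound by CREB and ATF proteins, was found in 1.79% of all windows and lay 29 bases before the Maff start shown. These matches describe letters in short windows only, and the Jund window lies before the start of the gene as listed in the table, so that it may miss the start in use. The Atf3 window lies inside the gene as listed. Near variants of the strings, such as tgacatca in the Jun window, were not searched, nor were sites outside the windows. A motif with no match here may therefore still have sites at these genes.

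The JUN genes made up most of the AP-1 transcripts in every liver. Jund, which encodes the JUN protein of resting cells, was the most abundant member in all 4 groups, with a mean of 126 ± 8.23 TPM in WT (C57BL/6) and 123 ± 9.08 TPM in WT (mixed) livers (SD, n = 3 each). Junb followed at 32.8 ± 4.70 and 30.2 ± 16.5 TPM, and Jun at 9.86 ± 1.43 and 9.25 ± 1.66 TPM. In both WT groups the ranges of these 3 genes did not overlap each other or those of the genes that came after them. Maff, Fosl2, Fos and Atf3 lay between 2.04 and 5.51 TPM on average in the WT groups. In WT (C57BL/6) livers each overlapped its neighbour in this order, whereas in WT (mixed) livers the order was Maff, Fos, Fosl2 and Atf3, and Maff lay above the range of Fosl2. Batf was at 0.702 and 0.637 TPM, and Fosb (0.175 and 0.137 TPM) and Fosl1 (0.0405 and 0.0371 TPM) were close to 0 and overlapped each other. WT livers therefore held little FOS message beside their JUN message.

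The sum over the 10 members was 181 ± 1.78 TPM in WT (C57BL/6) and 177 ± 21.4 TPM in WT (mixed) livers. It was 1410.1 ± 944 TPM in YAP1 KO livers, at 519 TPM in LM74, 1311 TPM in LM191 and 2399.7 TPM in LM189. In YKTH livers it was 418 ± 23.8 TPM, with all 3 mice between 394 and 441 TPM. Every knockout liver lay above every WT liver, and the lowest YAP1 KO mouse lay above the highest YKTH mouse.

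**Figure D1:**
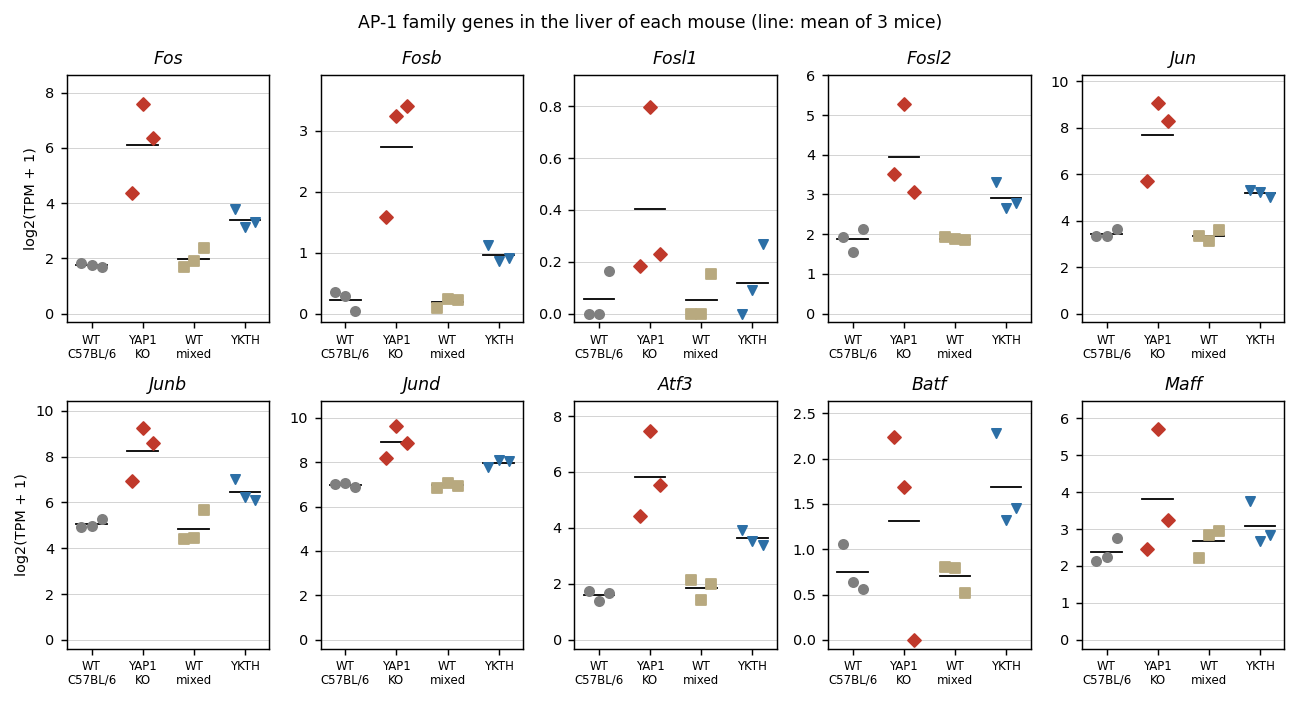
Level of each AP-1 member in the liver of each mouse, as log2(TPM + 1) on the vertical axis with its own scale in each panel. Each point is 1 mouse (3 per group) and the line is the mean of the points. The YAP1 KO points lie above the WT (C57BL/6) points in every panel but those of Batf and Maff, and spread further apart than those of the other groups in every panel.

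In YAP1 KO livers, 7 of the 10 members rose against WT (C57BL/6) littermates and none fell, in a test in which 18.8% of all 11704 genes tested were called higher. These were 3 of the 4 FOS genes (Fos, Fosb, Fosl2), all 3 JUN genes and Atf3. Batf and Maff did not pass, and Fosl1 was too low to be tested. In YKTH livers, 7 members rose against WT (mixed) littermates and none fell, where 19.2% of 11741 genes were called higher. These were Fos, Fosl2, the 3 JUN genes, Atf3 and Batf. Maff did not pass, and Fosb and Fosl1 were too low to be tested. Genes entered the test with at least 1 TPM in 3 of the 6 livers, and Fosb in the YAP1 KO set and Batf in the YKTH set reached this through the knockout livers alone, so these had to be higher there and their calls add nothing. The median log2 fold change of the members tested was 2.34 in YAP1 KO and 0.98 in YKTH mice, against −0.04 over all genes tested in either comparison. These medians include Fosb and Batf and are given as a description. In raw TPM, 8 of the 10 members had every YAP1 KO mouse above every littermate (47.5% of all genes tested did). In YKTH mice 8 of 10 did so as well (44.4% of all genes tested did). An absence of overlap was thus common in the raw TPM of these livers. The 8 include Fosl1 in YAP1 KO and Fosb in YKTH livers, which were too low to be tested. Fosl1 was at 0.136 TPM in LM74 against 0.121 TPM in LM193, and scaling reversed this order. The scaling before the test divided YAP1 KO libraries by 1.08 to 1.23 and their WT littermates by 0.857 to 0.908. It divided YKTH libraries by 1.07 to 1.18 and their WT littermates by 0.858 to 0.947. Raw TPM therefore put the knockouts higher than scaled TPM do. This holds also for the ratios of the means and of single mice given below. RNA from whole liver does not separate fewer cells of a type from less RNA per cell.

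Fos, the classical partner of JUN, showed the largest ratio of the means in YAP1 KO livers. Fos was at 189 TPM in LM189, 81.1 TPM in LM191 and 19.8 TPM in LM74, against 2.36, 2.20 and 2.60 TPM in the WT (C57BL/6) mice LM192, LM193 and LM75. It was at 7.70, 8.88 and 12.8 TPM in YKTH mice LM250, LM251 and LM225, against 2.24, 2.71 and 4.18 TPM in the WT (mixed) mice LM226, LM227 and LM230. Every YAP1 KO mouse was above every YKTH mouse, and every YKTH mouse above every WT mouse. The means differed 40.5-fold and 3.21-fold from those of the littermates. On the log2(scaled TPM + 1) scale, which understates the change of low genes, Fos rose by 4.04 (SE 0.70, adjusted p = 0.00306) in YAP1 KO and by 1.14 (SE 0.23, adjusted p = 0.00508) in YKTH livers (limma, Benjamini-Hochberg adjustment over all genes tested).

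Fosb, a close relative of Fos that is also induced by stimulation, was barely detected in WT livers. Its level was 8.41 TPM in LM189, 9.54 TPM in LM191 and 1.98 TPM in LM74, against 0.0299 to 0.272 TPM in WT (C57BL/6) mice. Here LM191 was the highest mouse, not LM189. In YKTH mice Fosb stood at 0.821, 0.875 and 1.18 TPM (LM250, LM251, LM225), against 0.0625 to 0.185 TPM in WT (mixed) mice. The groups did not overlap in either model. The log2 fold change in YAP1 KO livers was 2.34 (SE 0.45, adjusted p = 0.00515, limma), and the means differed 37.9-fold, against 6.99-fold in YKTH livers, where the gene was not tested. Fosb entered the YAP1 KO test through the knockout livers alone and had to be higher there, so its call adds nothing.

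Fosl2, which encodes FRA2, was at 38.1, 7.31 and 10.5 TPM in LM189, LM191 and LM74, against 1.95 to 3.41 TPM in WT (C57BL/6) mice. In YKTH mice it was at 5.30, 5.86 and 8.95 TPM (LM250, LM251, LM225), against 2.62 to 2.80 TPM in WT (mixed) mice. LM189 was the highest of the YAP1 KO mice, LM74 also lay above every YKTH mouse, and LM191 fell in the YKTH range. Fosl2 rose by 1.78 on the log2 scale in YAP1 KO (SE 0.52, adjusted p = 0.0293) and by 0.77 in YKTH livers (SE 0.16, adjusted p = 0.00634, limma). The YAP1 KO call was lost in 5 of 14 alternatives, among them the omission of any of the 3 WT mice, with adjusted p up to 0.0877. Fosl1, which encodes FRA1, never exceeded 0.740 TPM, its level in LM189, and was listed at 0 in 5 of the 12 livers.

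Jun, the founding member of the family, was at 533, 314 and 51.2 TPM in LM189, LM191 and LM74, against 9.01 to 11.5 TPM in WT (C57BL/6) mice. It was at 37.0, 31.5 and 39.5 TPM in YKTH mice LM250, LM251 and LM225, against 7.69 to 11.0 TPM in WT (mixed) mice. The 3 YKTH values were close together, whereas the YAP1 KO values spanned 10.4-fold. Jun rose by 3.91 on the log2 scale in YAP1 KO (SE 0.76, adjusted p = 0.00538) and by 1.55 in YKTH livers (SE 0.15, adjusted p = 0.000147, limma). For YKTH this was the smallest adjusted p among the members.

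Junb, which often acts against JUN in growth control, was at 605, 381 and 121 TPM in LM189, LM191 and LM74, against 29.8 to 38.2 TPM in WT (C57BL/6) mice. In YKTH mice it was at 74.5, 68.5 and 129 TPM (LM250, LM251, LM225), and in WT (mixed) mice at 20.4, 21.04 and 49.2 TPM. The WT (mixed) mouse LM230 was the highest of all WT mice for Junb, and YKTH mouse LM225 was above YAP1 KO mouse LM74. Junb rose by 2.82 in YAP1 KO (SE 0.54, adjusted p = 0.00479) and by 1.30 in YKTH livers on the log2 scale (SE 0.36, adjusted p = 0.022, limma). Without YKTH mouse LM225, or without WT (mixed) mouse LM226 or LM227, the YKTH call was lost. Exons of Junb overlap those of Prdx2, an antioxidant enzyme gene on the opposite strand, and since the use of strand in counting is not stated, reads may be shared. Prdx2 ran from 91.7 to 107 TPM in WT (C57BL/6) and from 122 to 135 TPM in YAP1 KO mice, a far narrower range than that of Junb.

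Jund was at 796, 464 and 286 TPM in LM189, LM191 and LM74, against 117 to 133 TPM in WT (C57BL/6) mice. YKTH mice LM250, LM251 and LM225 had 276, 261 and 220 TPM, against 114 to 133 TPM in WT (mixed) mice. This gene had the narrowest spread of all members in both WT groups in TPM, relative to its mean, except that Fosl2 was narrower in the WT (mixed) group. Jund rose by 1.54 in YAP1 KO (SE 0.35, adjusted p = 0.0103) and by 0.70 in YKTH livers on the log2 scale (SE 0.15, adjusted p = 0.00629, limma). Its mean ratio of 4.09 in YAP1 KO livers was the smallest among the 7 members that passed there. The antisense genes Junos and Gm11175, which overlap Jun and Jund, were listed at 0 in every liver, and Ccdc85b, which overlaps Fosl1, was at 4.30 to 12.4 TPM.

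Atf3, a stress-induced factor that pairs with JUN proteins, was at 175, 45.3 and 20.5 TPM in LM189, LM191 and LM74, against 1.62 to 2.33 TPM in WT (C57BL/6) mice. YKTH mice LM250, LM251 and LM225 had 10.6, 9.52 and 14.4 TPM, and WT (mixed) mice 1.68 to 3.40 TPM. As with Fos, all YAP1 KO mice lay above all YKTH mice and these above all WT mice. Atf3 rose by 3.91 in YAP1 KO (SE 0.67, adjusted p = 0.00291) and by 1.51 in YKTH livers on the log2 scale (SE 0.20, adjusted p = 0.000833, limma). The ratios of the means were 39.5 and 4.27.

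Batf, best known from lymphocytes and dendritic cells, was low everywhere. It was at 2.21 TPM in LM189, listed at 0 in LM191 and at 3.73 TPM in LM74, against 0.474 to 1.08 TPM in WT (C57BL/6) mice, so the groups overlapped. YKTH mice LM250, LM251 and LM225 had 1.5, 1.73 and 3.86 TPM, against 0.435 to 0.742 TPM in WT (mixed) mice. LM74, the lowest YAP1 KO mouse for 8 members, was the highest for Batf. The log2 fold change was 0.38 in YAP1 KO livers (SE 0.47, adjusted p = 0.564) and 0.81 in YKTH livers (SE 0.23, adjusted p = 0.0266, limma). Without LM191 it was 0.98 in YAP1 KO livers and passed (adjusted p = 0.0249), while the YKTH call was lost in 4 of 9 alternatives. Batf entered the YKTH test through the knockout livers alone and had to be higher there, so that call adds nothing.

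Maff, a small MAF protein gene, was at 51.1 TPM in LM189, 8.54 TPM in LM191 and 4.46 TPM in LM74, against 3.39 to 5.81 TPM in WT (C57BL/6) mice. YKTH mice LM250, LM251 and LM225 had 5.38, 6.14 and 12.5 TPM, and WT (mixed) mice 3.64 to 6.68 TPM. LM189 and LM225 were the highest mice of their groups, LM191 was also above its WT littermates, and the groups overlapped in both models. The log2 fold change was 1.12 in YAP1 KO livers (SE 0.73, 95% interval −0.57 to 2.81, adjusted p = 0.266) and 0.14 in YKTH livers (SE 0.30, 95% interval −0.55 to 0.82, adjusted p = 0.745, limma). The intervals are wide, so that they allow a rise as large as that of other members in YAP1 KO mice.

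**Figure D2:**
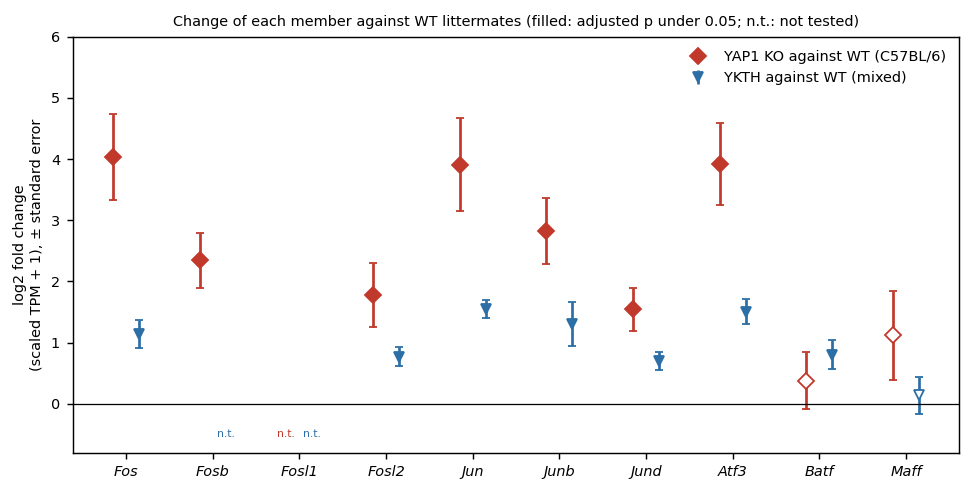
Log2 fold change of each AP-1 member against WT littermates, on scaled TPM with 1 added, in YAP1 KO (diamonds) and YKTH (triangles) livers. Bars are standard errors from limma, filled symbols have an adjusted p under 0.05, and n.t. marks a gene too low to be tested. Fos, Jun and Atf3 are the highest YAP1 KO points at 4.04, 3.91 and 3.91, and the highest YKTH point is Jun at 1.55.

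Exact two-sided permutation tests of the mean TPM gave p = 0.1 for each of the 8 members whose groups did not overlap in a model, which is the smallest value that 3 mice against 3 allow. Every p-value here measures the spread between mice of these litters. When LM189 and LM191 were both left out and all other livers were fitted together, the YAP1 KO arm was LM74 alone, a single mouse assumed to vary like the other groups. The log2 fold changes of the 8 members tested were then 2.42 for Atf3, 2.20 for Fos, 1.81 for Jun and 1.38 for Junb. They were 1.24 for Fosl2, 1.18 for Batf, 0.70 for Jund and −0.32 for Maff. This alternative was chosen after seeing the data, changes both the mice and the fit, and has no replicate of the knockout. When the YKTH comparison took its estimate of the spread from all 12 livers, 0 of 9 members tested were called by limma (4 had an unadjusted p under 0.05), and the smallest adjusted p was 0.0514, for Atf3. Of all 12159 genes tested in that fit, 2319 were called higher and 2373 lower. The estimate of the spread there includes the YAP1 KO mice.

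The wild-type groups differed little in AP-1 genes. None of the 7 members tested (all but Fosb, Fosl1 and Batf, which were too low) differed between WT (mixed) and WT (C57BL/6) livers, and none had an unadjusted p under 0.05. In this comparison limma called 0.216% of 11126 genes, and 649 genes had an unadjusted p under 0.05. The log2 differences of the members ran from −0.29 for Junb (95% interval −1.03 to 0.46) to 0.24 for Maff (95% interval −0.33 to 0.82), and in these 2 genes the intervals reach well past the estimates.

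The estimated change was larger in YAP1 KO than in YKTH livers for 8 of 9 members tested, all but Batf, but the difference did not pass the test for any member. In raw TPM, 5 of the 10 members (Fos, Fosb, Jun, Jund, Atf3) had every YAP1 KO mouse above every YKTH mouse, as did 5.17% of the 12159 genes tested. For Jund this was lost after scaling, where LM74 lay below YKTH mice LM250 and LM251. The scaling factor of LM74 was 1.22, against 1.12 in LM250 and 1.09 in LM251. Fos, Fosb, Jun and Atf3 stayed apart. The contrast of the effects over all 12 livers called 0 of 9 members tested, and 0.0658% of all genes tested (8 of 12159, with 557 at an unadjusted p under 0.05). Of the members, 4 had an unadjusted p under 0.05. The log2 fold change of Fos was larger by 2.90 in YAP1 KO mice (SE 0.84, 95% interval 1.08 to 4.72, adjusted p = 0.772), that of Atf3 by 2.41 (SE 0.79, adjusted p = 0.904), that of Jun by 2.35 (SE 0.89, adjusted p = 0.989) and that of Fosb by 1.68 (SE 0.53, adjusted p = 0.904). For the other 5 members the estimates ran from −0.42 (Batf) to 1.52 (Junb), with adjusted p = 0.999 for each. Without LM74 the difference passed for 3 members (Fos, Fosb, Jun), and with LM74 as the sole YAP1 KO mouse that of Fos was 1.07 and that of Jun 0.26. Fosb reached 1 TPM in no WT mouse and entered the contrast through the YAP1 KO mice and LM225 alone. Its values in this contrast, with or without LM74, therefore add nothing.

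The makeup of the family also differed between the groups. The JUN genes held 93.2% ± 1.08 of the summed TPM of the 10 members in WT (C57BL/6) livers, 85.7% ± 4.44 in YAP1 KO, 91.7% ± 0.270 in WT (mixed) and 90.6% ± 2.46 in YKTH livers (SD, n = 3 each). The YAP1 KO mice lay between 80.6% and 88.4%, below all WT (C57BL/6) mice, whereas the YKTH range of 87.9% to 92.5% enclosed that of the WT (mixed) mice. The FOS genes made up 2.94% ± 0.401, 7.86% ± 1.83, 3.33% ± 0.195 and 4.17% ± 0.944 in the same order of groups. The share of Atf3 and Batf was 1.52% ± 0.358, 5.18% ± 2.02, 1.91% ± 0.655 and 3.29% ± 0.728. For both of these branches the YAP1 KO range lay above the WT (C57BL/6) range, and for Atf3 and Batf the YKTH range lay above that of WT (mixed). Jund alone held 69.6% ± 4.33 of the sum in WT (C57BL/6) and 41.2% ± 12.1 in YAP1 KO livers, and 69.9% ± 7.65 in WT (mixed) and 60.6% ± 9.41 in YKTH livers. Maff held 2.38% ± 0.725, 1.21% ± 0.801, 3.07% ± 0.654 and 1.89% ± 0.825. Shares sum to the whole, so that a rise in 1 branch lowers the others.

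**Figure D3:**
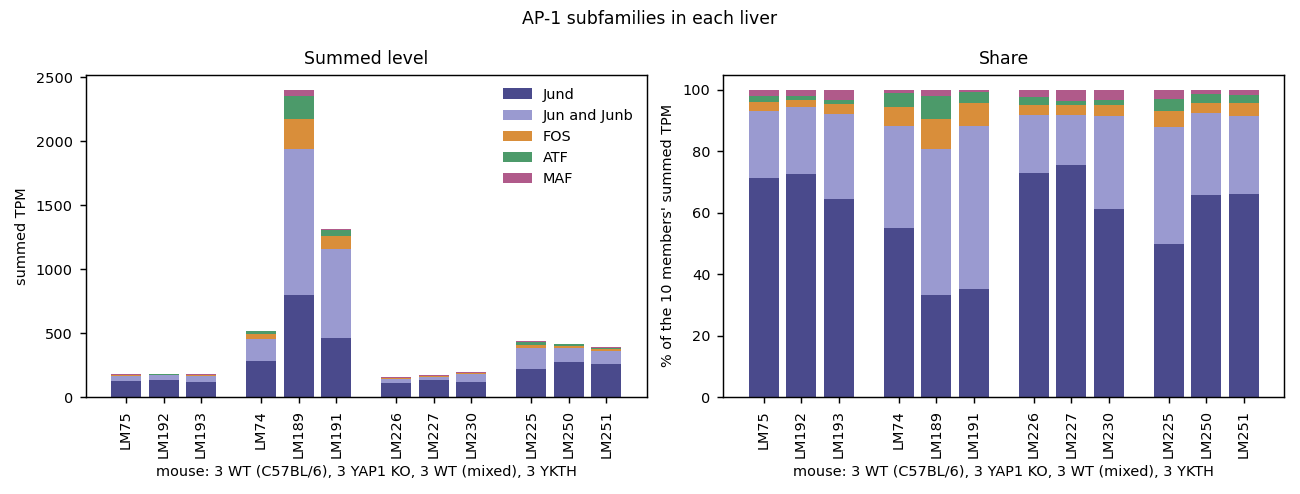
Summed TPM (left) and share in % (right) of Jund, of Jun and Junb, and of the FOS, ATF (Atf3, Batf) and MAF (Maff) genes in each of the 12 livers. Bars are stacked and each stands for 1 mouse, in groups of 3. The sum reaches 2399.7 TPM in LM189 and 519 TPM in LM74, and Jund takes 33.2% to 55.1% of it in YAP1 KO livers against 64.6% to 72.7% in their WT littermates.

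On the log2(scaled TPM + 1) scale, the members tested varied between YAP1 KO mice more than nearly all other genes. The SD of log2(scaled TPM + 1) within the YAP1 KO group ran from 0.83 (Jund) to 1.86 (Jun) for the 9 members in the fit of all livers, against a median of 0.16 over the 12159 genes of that fit. Jund stood at the 98.7th percentile of those genes and Jun at the 99.9th. In the WT (C57BL/6) group the members ran from 0.09 (Jund, the 25.5th percentile) to 0.34 (Maff, the 87.7th percentile). In YKTH mice the SD ran from 0.10 (Fosb) to 0.52 (Maff), and in WT (mixed) mice from 0.02 (Fosl2) to 0.76 (Junb, the 99.0th percentile). Relative to the WT (C57BL/6) mean, Fos was 79.2-fold higher in LM189, 34.0-fold in LM191 and 8.31-fold in LM74. The ratios for Jun in the same mice were 54.1, 31.9 and 5.19, and those for Atf3 were 86.1, 22.3 and 10.1. Maff spread from 11.9 in LM189 to 1.04 in LM74. In LM74, the ratios of Fos, Jun and Atf3 were above those of every YKTH mouse to the WT (mixed) mean, which reached 4.19, 4.27 and 5.35, all in LM225. LM225 was the highest YKTH mouse for 8 of the 10 members.

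**Figure D4:**
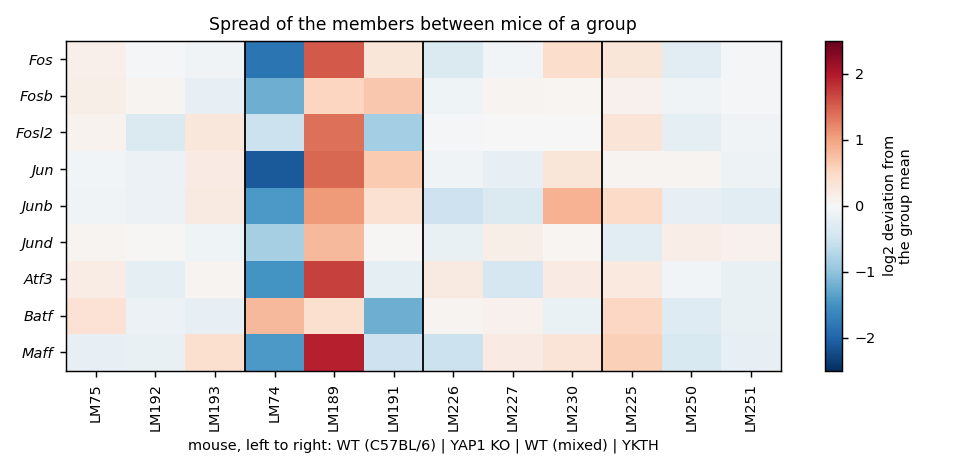
Deviation of each liver from the mean of its group, in log2(scaled TPM + 1), for the 9 members in the fit of all 12 livers (Fosl1 was too low). Columns are mice, in groups of 3 divided by lines, and red is above and blue below the group mean. The strongest colours are in the YAP1 KO columns, with LM74 low (−1.83 for Fos) and LM189 high (1.53 for Fos) for most members.

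Mice of a group that were high for Fos tended to be high for other members, but this rested largely on LM74 and LM189. Over the deviations of 12 livers from their group means, the Pearson r with Fos was 0.955 for Jun (Spearman rho 0.629), 0.927 for Junb (rho 0.895), 0.911 for Atf3 (rho 0.517), 0.885 for Maff (rho 0.664), 0.884 for Fosb (rho 0.804), 0.881 for Jund (rho 0.315), 0.662 for Fosl2 (rho 0.434) and −0.238 for Batf (rho 0.0629). In exact permutation tests of the mice within groups (1296 orders), adjusted over 8 relations, none passed, with p = 0.0926 as the smallest adjusted value for r (Junb, unadjusted exact p = 0.0116) and p = 0.0648 for rho (Junb and Fosb). Without LM74 and LM189, the mice farthest from the median for Fos, r was 0.567 for Jun, 0.878 for Junb, 0.186 for Atf3 and −0.0711 for Jund, and again none passed (exact permutation, smallest adjusted p = 0.148). Within the mixed set alone r was 0.940 for Junb, 0.881 for Maff, 0.803 for Fosb, 0.662 for Jun, 0.612 for Fosl2, 0.322 for Atf3, 0.298 for Batf and −0.163 for Jund. Within the C57BL/6 set it was −0.308 for Batf and 0.667 (Fosl2) to 0.989 (Jund) for the others, each over 6 mice.

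The genes most like each member in these deviations were other stimulus-induced genes in several cases. Over 12 livers, Btg2, a growth-restraining immediate-early gene, had r = 0.984 with Fos (rho 0.944) and 0.875 without LM74 and LM189, followed by Arrdc2 (0.982) and Herpud1 (0.966). Egr1, an immediate-early zinc finger factor, was nearest to Jun (0.976) and to Junb (0.954), and r was 0.862 and 0.900 without these 2 mice. Klf6 was nearest to Maff (0.962), Egr2 to Fosl2 (0.966) and Zfp36, which encodes a protein that speeds the decay of transcripts, to Fosb (0.968). Without these 2 mice, r was 0.826, 0.936 and 0.896. Near Atf3 were Tcim (0.970) and Csrnp1 (0.969), but r fell to 0.638 and 0.752 without LM74 and LM189. Rbm24 was nearest to Jund (0.968) and Rtp4 to Batf (0.966), with 0.753 and 0.953 without these mice. These values were picked as the highest among the genes of that fit and describe these libraries only, which share the group of LM74 and LM189.

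A list of 28 other immediate-early genes was followed beside the members. In YAP1 KO livers 14 of 23 tested rose and none fell (18.8% of all genes tested were called higher and 18.0% lower). In YKTH livers 9 of 22 rose and 3 fell (19.2% and 19.0% of all genes tested). With the spread of all 12 livers the YKTH counts were 6 higher and 1 lower of 24, where 2319 of all 12159 genes tested were called higher and 2373 lower. The median log2 fold change of the list was 1.76 and 0.45, against −0.04 over all genes in either. The largest rises in YAP1 KO mice were those of Btg2 (349 ± 362 TPM against 11.4 ± 1.81 TPM), Egr1 (267 ± 227 against 9.10 ± 1.98 TPM) and Nr4a1, an orphan nuclear receptor gene (60.6 ± 75.5 against 3.31 ± 3.17 TPM), with log2 fold changes of 3.86, 3.82 and 2.96 (SD, n = 3, limma adjusted p = 0.0053, 0.00695 and 0.0346). In YKTH mice they were Socs3, a brake on cytokine signalling, with a log2 fold change of 2.15, Klf6 with 1.77 and Ier5 with 1.73 (limma adjusted p = 0.00166, 1.91e-05 and 0.000605), while Dusp6, an ERK phosphatase, Klf10 and Ccn1 fell, with −1.08, −0.999 and −0.69 (limma adjusted p = 0.00124, 0.0257 and 0.00145). By mouse, the list summed to 707 TPM in LM74, 1901 TPM in LM191 and 3835 TPM in LM189, the same order as the sum of the AP-1 members.

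A list of 26 genes known as AP-1 targets, which include matrix proteases, their inhibitors and cytokines, was followed as well. It was chosen with earlier results of these data known. In YAP1 KO livers 17 of 19 tested rose and none fell, where 18.8% of all genes tested were called higher and 18.0% lower. In YKTH livers 17 of 18 tested rose and 1 fell, where 19.2% were called higher and 19.0% lower. Of the tested genes, 6 in YAP1 KO and 3 in YKTH livers reached 1 TPM in no WT mouse of the set and so entered the test through the knockout livers alone, and these counts are given as a description. The metalloproteinase inhibitor gene Timp1 was at 15.3 ± 4.85 TPM in YAP1 KO against 0.378 ± 0.138 TPM in WT (C57BL/6) mice, and Spp1, which encodes osteopontin, at 450.4 ± 238 against 40.0 ± 12.2 TPM (SD, n = 3). The log2 fold change of Spp1 was 3.03 (limma adjusted p = 0.000304). In YKTH livers the largest log2 fold changes were those of Timp1 (3.26), the macrophage elastase gene Mmp12 (2.92) and Lgals3, which encodes galectin-3 (2.87, limma adjusted p = 5.66e-05), and the gene of cyclin D1, Ccnd1, fell by 0.51 (limma adjusted p = 0.0115). Timp1 in both models and Mmp12 were among the genes that entered through the knockout livers alone and had to be higher there. The list summed to 1203 TPM in LM74, where the AP-1 members were lowest, and to 721 TPM in LM191 and 769 TPM in LM189. Of the 25 genes of the list above 0 in YAP1 KO mice, 18 were highest in LM74 and 6 in LM189. Spp1 made up much of these sums, at 725 TPM in LM74, 323 TPM in LM191 and 303 TPM in LM189. Without it, the list summed to 478, 398 and 466 TPM in these mice. All YAP1 KO sums lay above those of the YKTH mice (485 to 683 TPM) with Spp1, and without it the YKTH sums of 400.2 to 475 TPM fell in the same range.

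The other bZIP genes that can pair with AP-1 proteins were called in few cases, with 2 of 15 tested higher and 1 lower in YAP1 KO and 4 of 16 higher and 2 lower in YKTH livers, shares near those of all genes. Cebpd rose in both, with a log2 fold change of 1.27 (adjusted p = 0.0105) and 0.82 (adjusted p = 0.0286), and so did the small MAF gene Mafk, with 0.94 (adjusted p = 0.0108) and 0.76 (adjusted p = 0.00112, limma). Batf3 rose by 1.34 and Atf4 fell by 0.46 in YKTH livers (limma adjusted p = 0.0216 and 0.0117). Batf2 reached 1 TPM in no WT (mixed) mouse, entered the YKTH test through the knockout livers alone and had to be higher there. Ddit3 of this list was not analysed here.

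Among 23 genes of kinases and factors that act before AP-1, 5 rose and 4 fell in YAP1 KO, and 5 rose and 3 fell in YKTH livers, again near the shares of all genes. Map3k1, a kinase of the JNK pathway, was at 13.9 ± 3.33 TPM in YAP1 KO against 3.24 ± 0.164 TPM in WT (C57BL/6) mice, and at 17.3 ± 2.24 against 3.31 ± 0.436 TPM in the mixed set (SD, n = 3). Its log2 fold changes were 1.49 and 1.81 (limma adjusted p = 0.000158 and 7.15e-05). Map3k8 rose by 0.95 and 0.97 (limma adjusted p = 0.0035 and 0.000564). Mapk3, which encodes ERK1, rose by 0.95 in YAP1 KO and 0.86 in YKTH livers (limma adjusted p = 0.000268 and 0.00506), and Mapk7, which encodes ERK5, by 0.86 and 1.23 (limma adjusted p = 0.0111 and 0.000481). Map2k6 and Map2k3, kinases of the p38 pathway, fell, with log2 fold changes of −0.97 and −0.66 in YAP1 KO and of −1.004 and −0.78 in YKTH livers (limma adjusted p = 0.0145, 0.0145, 0.00223 and 0.00263). Itch, a ubiquitin ligase that targets JUN, fell as well, with −0.48 in YAP1 KO and −0.51 in YKTH livers (limma adjusted p = 0.00804 and 0.0054). Unlike Fos or Jun, the list summed to a narrow range in YAP1 KO mice, from 576 to 627 TPM, against 426 to 518 TPM in WT (C57BL/6) mice.

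Markers of other cell types also moved with the knockouts. Of 10 macrophage genes, 9 rose in each model, and their sum was 576 to 835 TPM in YAP1 KO against 227 to 286 TPM in WT (C57BL/6) mice, and 775 to 836 TPM in YKTH against 195 to 364 TPM in WT (mixed) mice. Of 8 monocyte and neutrophil genes, 7 of 7 tested rose in YAP1 KO livers (58.9 to 67.5 against 10.5 to 16.8 TPM), and 3 of 6 in YKTH livers (15.7 to 64.7 against 6.80 to 9.24 TPM). In this list 3 of the genes tested in YAP1 KO and 2 of those in YKTH livers reached 1 TPM in no WT mouse of the set. The same held for Gpnmb of the macrophage list, Cldn7 of the biliary list in YAP1 KO and Cd3g of the lymphocyte list in YKTH livers. All of these had to be higher in the knockouts. Over all genes tested, 18.8% and 19.2% were called higher. Of 8 stellate and fibroblast genes 4 rose in each and Lrat, which stores retinol in stellate cells, fell by 0.85 in YAP1 KO livers (limma adjusted p = 0.00943), with sums of 231 to 294 against 35.7 to 52.6 TPM in the C57BL/6 set and 135 to 183 against 33.4 to 54.0 TPM in the mixed set. Of the biliary genes 2 of 4 tested rose in each (sums of 26.6 to 35.4 against 3.20 to 7.01 TPM, and 22.1 to 37.1 against 4.75 to 14.9 TPM), and Epcam, an epithelial surface protein gene, fell by 1.48 in YKTH livers (limma adjusted p = 0.00118). Lymphocyte genes stayed at 15.1 TPM or less in sum in every liver, with none of 3 tested called in YAP1 KO and 1 of 4 higher in YKTH livers, and endothelial genes were at 73.5 to 125 TPM. Of the 6 endothelial genes, 2 fell in each model and 1 rose in YKTH livers. Of the hepatocyte genes, 3 of 8 fell in each model. Within the YAP1 KO group the macrophage sum was highest in LM74 (835 TPM), the mouse with the least AP-1 message, against 682 TPM in LM189 and 576 TPM in LM191, and the stellate sums of LM74 and LM189 were 292 and 294 TPM. The part of these cells in the levels of the AP-1 members was not tested.

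**Figure D5:**
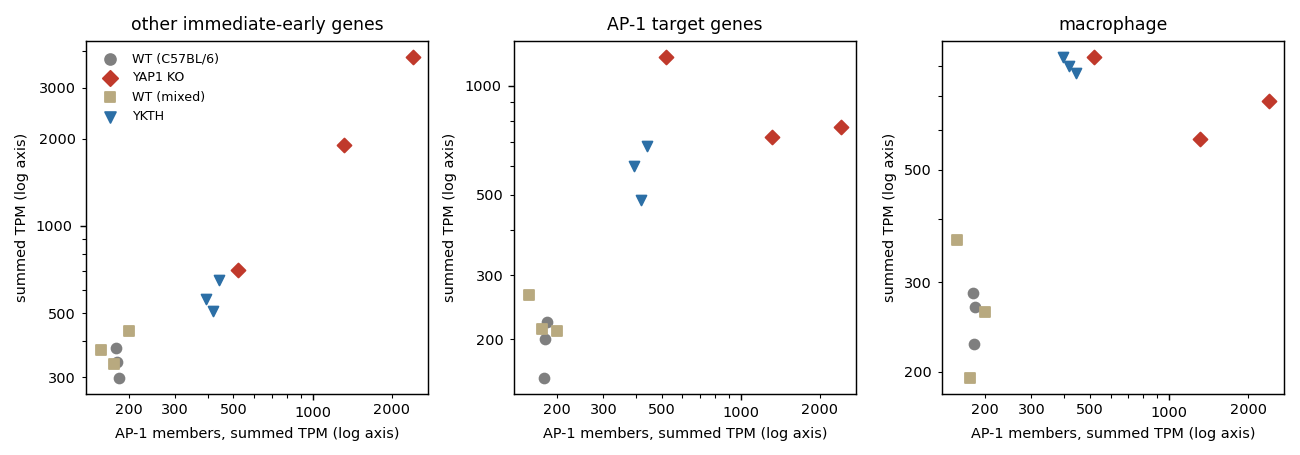
Summed TPM of the other immediate-early genes (28), the AP-1 target genes (26) and the macrophage markers (10) on the vertical axes against the summed TPM of the 10 AP-1 members, on log axes, with each point 1 mouse. In YAP1 KO mice the immediate-early sum runs from 707 to 3835 TPM in the order of the AP-1 sum, whereas the target and macrophage sums are highest, at 1203 and 835 TPM, in the mouse with the lowest AP-1 sum of its group, where Spp1 makes up 725 TPM of the target sum.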

How the data were processed

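Whole-liver RNA was sequenced from 12 female mice in 4 groups of 3, as labelled. The authors aligned reads to GRCm38.p6 and assigned them to genes in CLC Genomics Workbench, and deposited TPM per mouse, reads scaled for gene length and library total. Their deposited comparison columns (fold changes, p-values and group means, from edgeR within CLC) were not used. TPM columns without a sample numbered 0. The study states a number of reads per sample, but TPM keep no counts, so the reads behind each value are unknown.

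Within a fit, each library was divided by a factor, an unweighted mean of its log ratios after trimming (30% by log ratio and 5% by mean level, from both tails), and log2 was taken after adding 1. Genes with at least 1 TPM in 3 libraries were tested with limma 3.58.1 (R 4.3.3; eBayes with a trend), two-sided, with Benjamini-Hochberg adjustment over all genes tested and a threshold of 0.05. The libraries of a model and its littermates made up 1 fit of 6, and the difference between models was fitted over 12. Single genes were compared by exact permutation (scipy 1.17.1). The steps were tested on simulated data. The alternatives were a pseudocount of 0.1, no filter, 5 TPM, no scaling, quantile normalization, robust shrinkage, all 12 libraries in 1 fit and each mouse left out.

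The members and gene lists were chosen with earlier results of these data known. Named were all 10 members, Yap1 and Wwtr1, the 3 largest rises and falls past the threshold in each list, and for each member the 3 genes with the highest r, of which some are printed and some genes are not reported here. Windows and their starts came from RefSeq. The start and end listed for all 10 members with the deposited values matched GENCODE M21, but the RefSeq starts differed from these for some members.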

Additional observations from a re-analysis of the deposited data

Results flagged for a closer look

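Ccn1, a matricellular immediate-early gene and a classical target of YAP1, moved in opposite directions in the models: every YAP1 KO mouse was above all of its WT (C57BL/6) littermates and every YKTH mouse below all of its WT (mixed) littermates. The rule behind this remark used the directions alone, so that in it the difference was not tested. The log2 fold change was 1.98 in YAP1 KO livers (SE 0.42, adjusted p = 0.00763) and −0.69 in YKTH livers (SE 0.10, adjusted p = 0.00145), and the contrast of both over 12 livers was 2.66 (SE 0.48, 95% interval 1.61 to 3.72), with an adjusted p = 0.143 by limma that missed the threshold. None of the 10 AP-1 members showed such opposite movement. Groups of 3 mice are too small for a test of single outlying mice, so LM189 and LM74 were not tested as such.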

How the results depend on the processing

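The number of members called in YAP1 KO livers was 6 or 7 in every alternative with more than 1 YAP1 KO mouse, and in YKTH livers it was 5 to 8 in all but 1. Fosb in YAP1 KO and Batf in YKTH livers passed the main filter through the knockout livers alone. They are part of these counts where called, and add nothing. The members called also changed. In YAP1 KO livers Fosl2 was lost when any WT mouse was left out, and Batf was called without LM191. With all 12 libraries in 1 fit, the YKTH count was 0 in place of 7, while 4692 of all 12159 genes tested were called. The estimate of the spread in that fit includes the YAP1 KO mice. For the difference between the models the count was 0, except for 3 (Fos, Fosb, Jun) without LM74, so that the range over mice left out was 0 to 3. Fosb entered that fit through knockout livers alone, and its call adds nothing. Without scaling, the share of higher among all called genes was 84.0% in place of 51.1% in YAP1 KO and 82.2% in place of 50.2% in YKTH livers, and the median log2 fold change of all genes was 0.28 and 0.24. The same number of members, 7 higher and none lower, was called then. An alternative without LM189 and LM191, with LM74 alone as the YAP1 KO arm in 1 fit of the remaining livers and its spread taken from the other groups, was chosen after seeing the data. Values that changed sign were small or uncalled. Maff was at −0.32 in YAP1 KO livers and −0.46 in the difference without LM189 and LM191, and between −0.16 and 0.33 in YKTH livers over mice left out. In the same alternative the difference was −0.0049 for Jund and 0.38 for Batf, and Batf ran from −0.82 to 0.18 over mice left out. Between the WT groups, Fos ran from −0.025 to 0.36 and Fosl2 from −0.21 to 0.10 over mice left out, and Fosl2 was 0.012 without scaling. For all genes, YKTH called 4486 genes, and 2833 without LM251, the difference between the models 8 genes, and 2 to 20 under the alternatives, and the WT comparison 24, and 8 to 28. No paired analysis was possible because the labels give no numbers shared between groups. With 3 mice a group and no counts, changes of Fosl1, Fosb in YKTH mice and Batf could not be measured well.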
